A study of Mus musculus with 6 samples.

Results

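The nuclear genes of the mitochondrial respiratory chain were followed in whole brains of neonatal mice given testosterone propionate (TP), an ester of testosterone. Members were all probe sets of an Affymetrix expression array annotated with a single gene whose symbol starts with Nduf, Uqcr or Atp5, is Sdha, Sdhb, Sdhc or Sdhd, or is Cox4 to Cox8 followed by a subunit letter. The rule found 179 probe sets of 90 genes, among 45037 probe sets and 18193 genes on the array. It also took in assembly factors (Ndufaf1 to Ndufaf8), Ndufa4l2, which is related to Ndufa4, and Cox7a2l, which is related to Cox7a2. Another 10 probe sets named a family gene together with other genes and were not members; Ndufa11 and Ndufs6 occurred only there, and Cox7b was not analysed here.

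Female TP brains were measured on 2 arrays, female vehicle brains on 2 arrays, male TP brains on 1 array and male vehicle brains on 1 array. TP-treated C57BL/6 pups, labelled C57BL/6J in the treatment protocol, received 1 mg of TP in 20 µL of sesame oil into the peritoneum on postnatal day 2, and vehicle pups received 20 µL of the oil alone. All brains were collected on postnatal day 6, and each array carried RNA pooled from 6 mice. The labels mark the later female array of each treatment as a replica without naming a separate pool, so the spread behind the p-values may be technical.

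The respiratory chain passes electrons from NADH through complex I, and from succinate through complex II, to ubiquinone, then through complex III to cytochrome c and through complex IV to oxygen. Complexes I, III and IV pump protons across the inner mitochondrial membrane, and complex V, the ATP synthase, makes ATP from their return. All but a few subunits are encoded in the nucleus. Neurons draw most of their ATP from this chain. In whole-brain RNA, fewer cells of a type and less RNA per cell cannot be told apart.

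Many nuclear respiratory genes carry binding sites of the transcription factors NRF1, GABP (of the ETS family) and YY1 near their start, and these motifs are a feature of the members that the symbol rule did not use. RefSeq promoter windows (GRCm38.p6, 250 bases before to 50 after a gene's start) were at hand for 74 of the 90 genes and were searched on both strands. The NRF1 words CGCATGCG or CGCACGCG occurred in 18 member genes (24.3%) and in 7.64% of all 14368 genes with a window. With a G required before and a C after these words, the form searched first, the counts were 11 member genes (14.9%) and 4.27% of all genes. The ETS word CCGGAAG occurred in 19 member genes (25.7%), against 15.0% of all genes, and the YY1 word AAGATGGC in 10 member genes (13.5%), against 4.09%. Any of these was found in 38 member genes (51.4%), against 23.8% of all genes, or in 47.3% against 21.3% with the longer NRF1 form. TATAAA occurred in 10.8% of member genes and 11.5% of all genes. The word TCAAGGTCA of the estrogen-related receptors, regulators of energy metabolism, occurred in 2 member genes (2.70%) and 0.404% of all genes. These shares are descriptions with no test, and a match is not a binding site. A stretch upstream of the start is shown for 1 subunit gene per complex. Assembly factors and dim genes were passed over, genes were ranked by how many kinds of these motifs lay before the start, and ties went to more matches and then to the alphabet; in complex I several genes had 1 kind, as Ndufa7 has. The sequences run 5′ to 3′ on the gene's own strand, with the NRF1, ETS and YY1 words, on either strand, in capitals.
Ndufa7 (complex I, plus strand), chr17:33824555-33824582: ctcgcgagacCGCACGCGgtacccagga
Sdhd (complex II, minus strand), chr9:50603879-50603937: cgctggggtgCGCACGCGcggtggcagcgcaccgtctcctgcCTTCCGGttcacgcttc
Uqcr11 (complex III, minus strand), chr10:80406871-80406897: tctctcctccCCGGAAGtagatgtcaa
Cox6a1 (complex IV, minus strand), chr5:115348959-115349018: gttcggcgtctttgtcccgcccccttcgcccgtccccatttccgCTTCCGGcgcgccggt
Atp5j (complex V, minus strand), chr16:84835021-84835080: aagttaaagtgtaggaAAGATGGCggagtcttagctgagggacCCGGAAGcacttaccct

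The deposited values are on the log2 scale, normalized between arrays by the authors, and array medians lay between 5.69 and 5.74. Neuron markers were measured for 11 of 11 genes, none of them dim, where dim means a mean below the 40th percentile of all probe sets (4.98 log2 units). The 2 male arrays carried the Y-linked gene Eif2s3y at 9.12 with TP and 9.16 with vehicle, against 2.84 to 3.09 in the 4 female arrays. Xist, the RNA of the inactive X chromosome, read 10.45 on the male TP array and 5.29 on the male vehicle array, against 12.61 to 12.83 in females. The array labelled male TP therefore held Xist RNA, which its label does not account for, and the members' medians and counts for TP over both sexes and for male minus female are given with and without it. The male pair and the sexes' difference in TP effect cannot be had without it.

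Of the 179 members, 159 probe sets were not dim, and 86 of the 90 genes had a brightest probe set that was not dim. The exceptions were Ndufb4 of complex I and the tissue isoforms Cox4i2, Cox7b2 and Cox8b of complex IV. The members' median range over the 6 arrays was 0.20 log2 units, against 0.30 for all probe sets and 0.20 for bright ones, the 9942 probe sets at least as bright as the members' lower quartile. The replica minus original array had an SD over members of 0.11 for female TP and 0.16 for female vehicle, against 0.15 and 0.19 over all probe sets and 0.086 and 0.11 over bright ones.

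Read as the deviation of each array from a member's mean over all 6, the members' median lay at 0.0024 and 0.030 on the female TP arrays and at 0.015 and 0.036 on the female vehicle arrays. It lay at -0.028 on the male TP array and at -0.042 on the male vehicle array. The male arrays were therefore the lowest, and the female TP and female vehicle arrays overlapped. Complex I core genes, which bind NADH and hold the flavin and iron-sulfur clusters, had medians of -0.024 and 0.034 in female TP and 0.023 and 0.11 in female vehicle, with the male TP array at -0.074 and the male vehicle array at -0.040. All 6 core genes lay below their own mean on the male TP array. The F1 part of complex V, the catalytic head, also lay below its mean in 5 of 5 genes on the male TP array (median -0.089), against 1 of 5 on the male vehicle array (0.018).

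**Figure D1:**
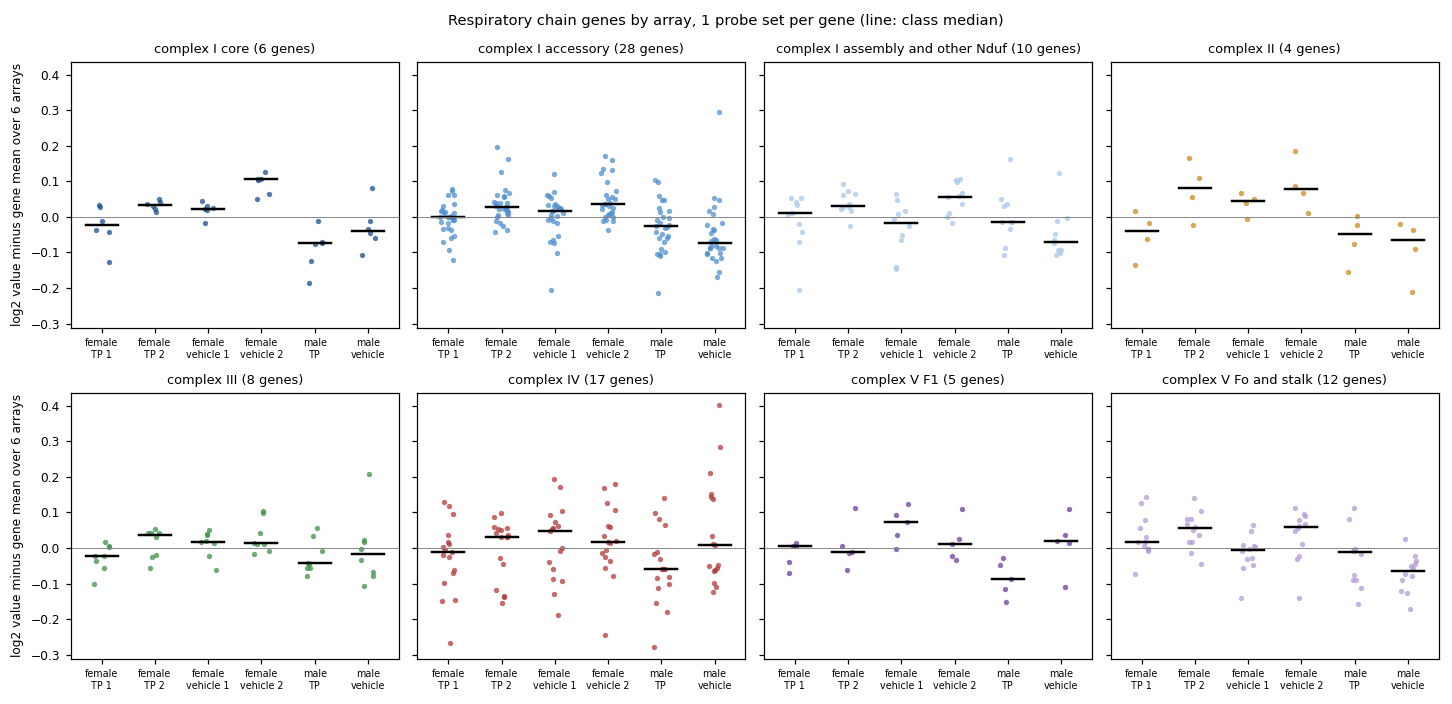
Deviation of each gene from its own mean over the 6 arrays (log2 units, 1 probe set per gene), by complex, for female TP 1 and 2, female vehicle 1 and 2, male TP and male vehicle. Points are genes and lines are class medians; class medians stay within -0.089 and 0.11, and the medians of the female TP and vehicle arrays overlap in every class but F1.

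No respiratory chain gene passed the test for TP. In females, 0 of 179 members passed in limma (smallest adjusted p = 0.543), where 5 probe sets of 45037 passed (0.0111%). At an unadjusted p under 0.05 the members counted 2 higher and 3 lower, 1.12% and 1.68%, against 4.0% and 4.13% of all and 1.87% and 0.523% of bright probe sets. Over both sexes, with sex in the model, again 0 members passed (smallest adjusted p = 0.279), where 4 probe sets passed (0.00888%), and at an unadjusted p under 0.05 there were 8 higher and 5 lower, 4.47% and 2.79%, beside 5.98% and 6.28% of all and 5.66% and 1.84% of bright probe sets. Without the male TP array that model gives the female values.

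The fits also gave a 95% interval for each change, which rests on a spread between arrays that may be technical. In females the 95% interval of all 90 genes, each on its brightest probe set, lay within 1.5-fold either way, as did that of 97.4% of all genes on the array. Over both sexes the same held for 90 of 90 genes, against 99.1% of all genes. The median gene's interval reached 0.20 log2 units to either side of its difference in females and 0.15 over both sexes. The intervals are not adjusted for the number of probe sets tested, so a typical member needed a change larger than this to pass. The median member difference was -0.010 in females (all probe sets -0.012) and -0.0046 over both sexes (all probe sets -0.016), on the log2 scale as TP minus vehicle.

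Members whose TP and vehicle groups do not overlap were counted next. In females both TP arrays lay above both vehicle arrays in 24 of 179 members and below them in 36, 13.4% and 20.1%, against 17.1% and 21.3% of all and 20.4% and 18.7% of bright probe sets. By gene over both sexes, all TP arrays lay above all vehicle arrays in 2 of 90 genes and below them in 6, 2.22% and 6.67%, beside 4.69% and 10.3% of all and 7.13% and 9.39% of bright genes.

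The 6 core genes of complex I, each on its brightest probe set, were all lower with TP, in females (median difference -0.050) and over both sexes (-0.045), and none passed. Ndufs8, an iron-sulfur subunit next to the ubiquinone site, read 11.77 and 11.93 on the female TP arrays, against 11.93 and 12.002 on the female vehicle arrays. It read 11.77 in male TP and 11.98 in male vehicle brains. The lower TP values overlap the vehicle range in females, and the difference over both sexes was -0.14 ± 0.07 (SE; adjusted p = 0.465), the lowest of the core genes. Another probe set of Ndufs8 gave 0.14 in the same comparison. Ndufv2, which carries an iron-sulfur cluster beside the flavin, had the core difference nearest to 0, at -0.016 over both sexes. Of all genes on the array, 59.2% lay below 0 in females and 62.1% over both sexes.

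The 28 accessory genes, which surround and stabilise the core, split into 16 higher and 12 lower over both sexes (median 0.014) and into 11 higher and 17 lower in females (-0.0096). Ndufa5 had the highest difference over both sexes. It read 10.56 and 10.59 in female TP brains, against 10.50 and 10.58 in female vehicle brains, and 10.66 in male TP brains, against 10.47 in male vehicle brains. The male pair of Ndufa5 differed by 0.19 and the female groups by 0.037, and the difference over both sexes was 0.088 (adjusted p = 0.632). Among genes that were not dim, Ndufb7 had the lowest difference, -0.093 (adjusted p = 0.601), and the female TP arrays at 11.43 and 11.50 overlapped the female vehicle arrays at 11.49 and 11.61. In females alone Ndufab1, the mitochondrial acyl carrier protein, was the highest gene that was not dim, at 0.065. The dim Ndufb4 lay outside both, at -0.094 over both sexes and 0.11 in females.

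Among assembly factors and the other Nduf genes, 5 of 10 were higher over both sexes and 5 lower. Ndufaf4, an assembly factor of complex I, read 9.79 and 9.76 in female TP brains, against 9.59 and 9.74 in female vehicle brains. It read 9.90 in male TP brains, against 9.63 in male vehicle brains, so the TP and vehicle arrays did not overlap. Its difference was 0.16 log2 units (95% interval -0.0039 to 0.33; adjusted p = 0.415), the highest of the 90 genes. Ndufa4l2 was the lowest of this class, at -0.13 (adjusted p = 0.494), and Ndufa4, now counted with complex IV, differed by -0.014 (adjusted p = 0.946).

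Complex II oxidises succinate through Sdha, the flavin subunit, and Sdhb, the iron-sulfur subunit, and is held in the membrane by Sdhc and Sdhd. On their brightest probe sets all 4 genes were lower with TP in females (median -0.048) and 3 of 4 over both sexes (-0.032). Other probe sets ran the other way. In females Sdha ranged from -0.090 to 0.28 among 4 probe sets, 1 of them dim. Sdhc ranged from -0.074 to 0.10 and Sdhd from -0.098 to 0.19, each among 2 probe sets that were not dim. The values below are those of the brightest probe sets. Sdhd read 10.78 and 10.77 in female TP brains, against 10.86 and 10.88 in female vehicle brains, and 10.77 in male TP brains, against 10.70 in male vehicle brains. The female groups of Sdhd do not overlap and the male pair runs the other way, with a female difference of -0.098 (adjusted p = 0.789). Sdhc differed by -0.074 in females and by 0.22 between the male arrays, and by 0.022 over both sexes (adjusted p = 0.953). Sdha and Sdhb differed by -0.021 and -0.054 over both sexes (adjusted p = 0.927 and 0.763).

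Complex III genes counted 3 higher and 5 lower over both sexes (median -0.0028). Uqcrc1, a core protein of the complex, read 11.88 and 11.92 in female TP brains, against 12.02 and 11.97 in female vehicle brains. It read 11.90 in male TP brains, against 12.19 in male vehicle brains. All TP arrays of Uqcrc1 lay below all vehicle arrays, with a difference of -0.16 (95% interval -0.32 to 0.0034; adjusted p = 0.414). Its partner core protein Uqcrc2 had the highest difference of the class, 0.035 (adjusted p = 0.859). In females alone Uqcr11, a small subunit, was highest at 0.036 and Uqcr10, another small subunit, lowest at -0.094.

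In complex IV 6 genes were higher and 11 lower over both sexes (median -0.057). Cox6a2, the isoform of heart and skeletal muscle, had the lowest difference of all 90 genes. It read 6.38 and 6.49 in female TP brains, against 6.84 and 6.64 in female vehicle brains. It read 6.73 in male TP brains, against 6.80 in male vehicle brains. The female groups of Cox6a2 do not overlap, and the male TP value lies among the vehicle values. The Cox6a2 difference was -0.31 ± 0.10 in females (SE; 95% interval -0.55 to -0.062; adjusted p = 0.567) and -0.23 ± 0.09 over both sexes (SE; adjusted p = 0.374). Its other probe set, which is dim, gave -0.34 in females (adjusted p = 0.543) and -0.28 over both sexes (adjusted p = 0.279), the smallest adjusted p of any member.

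Cox6a2 is a muscle isoform, so muscle markers are given beside it. Of 12 skeletal muscle markers, 8 were dim, and their summed linear level was 587 and 535 in female TP brains and 582 and 566 in female vehicle brains, with 567 in male TP and 574 in male vehicle brains. In females 6 were higher and 6 lower. Of 5 heart muscle markers, 4 were dim, and their summed level was 95.5 and 96.8 in female TP brains and 126 and 100.1 in female vehicle brains, with 95.3 in male TP and 107 in male vehicle brains. In females 1 of these was higher and 4 lower, the dim Tnnt2 by -0.54 and the dim Myh6 by -0.39 log2 units (adjusted p = 0.543 and 0.525). The part of muscle RNA in the Cox6a2 difference was not tested. Markers of other tissues also differed between the female groups, and the hair gene Krtap19-5 (lower) and the bone gene Ibsp (higher) passed in females (adjusted p = 0.0482 for each in limma). All 4 hair keratin-associated markers, each of them dim, were lower, with a summed level of 29.6 and 30.0 in female TP brains and 74.4 and 66.3 in female vehicle brains, and with 30.0 in male TP and 36.1 in male vehicle brains. Of 5 bone markers, 3 of them dim, 4 were higher, with 411 and 421 in female TP brains and 309 and 363 in female vehicle brains, and with 256 in male TP and 347 in male vehicle brains. Of 5 erythroid markers, 2 of them dim, 3 were higher, with 303 and 317 in female TP brains and 251 and 264 in female vehicle brains, and with 303 in male TP and 281.0 in male vehicle brains. All 5 endothelial markers were lower, by a median of -0.082, and none of the erythroid or endothelial markers passed. The part of these tissues in the member differences was not tested.

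The widely expressed partner Cox6a1 read 14.02 and 13.99 in female TP brains, against 14.11 and 14.05 in female vehicle brains. It read 14.00 in male TP brains, against 14.04 in male vehicle brains. No TP array of Cox6a1 reached a vehicle array, and the difference over both sexes was -0.063 (adjusted p = 0.716). Cox5b, another nuclear subunit of the complex, was also below the vehicle arrays on each TP array, at 13.40 and 13.43 in female TP, 13.51 and 13.52 in female vehicle, 13.40 in male TP and 13.50 in male vehicle brains, a difference of -0.099 (adjusted p = 0.537). Cox7a2 ran the other way. It read 13.16 and 13.15 in female TP brains, against 13.06 and 13.14 in female vehicle brains, and 13.22 in male TP brains, against 13.00 in male vehicle brains, a difference of 0.11 (adjusted p = 0.542).

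The remaining isoforms of complex IV did not pass either. Cox4i1 differed by -0.010 and its dim lung isoform Cox4i2 by -0.078 over both sexes (adjusted p = 0.963 and 0.803). Cox6b1 differed by 0.0054 and the testis isoform Cox6b2 by 0.020 (adjusted p = 0.982 and 0.943). Cox7a1, the muscle isoform, differed by -0.16 and Cox7a2l by -0.050 (adjusted p = 0.577 and 0.788), while the dim Cox7b2, a testis isoform, differed by -0.22 (adjusted p = 0.402). Cox8a differed by -0.057, the dim muscle isoform Cox8b by -0.077 and the testis isoform Cox8c by 0.080 (adjusted p = 0.753, 0.780 and 0.773).

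The parts of complex V differed in their counts. Of the 5 F1 genes, 4 were lower over both sexes (median -0.074), and of the 12 genes of the membrane part and stalk (Fo), 10 were higher (median 0.030). In females the same counts were 4 of 5 lower (-0.070) and 9 of 12 higher (0.018), and none of the 17 genes passed. The counts come from genes that share the same arrays, and 40.8% of all genes were above 0 in females and 37.9% over both sexes.

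In F1, Atp5c1, the central gamma subunit, read 12.82 and 12.84 in female TP brains, against 12.95 and 12.87 in female vehicle brains, and 12.77 in male TP brains, against 12.89 in male vehicle brains. Each TP array of Atp5c1 lay below each vehicle array, with a difference of -0.094 (adjusted p = 0.573), and Atp5a1, the alpha subunit, showed the same order with -0.074 (adjusted p = 0.663). Atp5d, the delta subunit, had the lowest difference of F1, -0.13 (adjusted p = 0.521), of which the male pair gave -0.26. In Fo, Atp5k, the small membrane subunit e, read 12.33 and 12.42 in female TP brains, against 12.29 and 12.19 in female vehicle brains. It read 12.42 in male TP brains, against 12.36 in male vehicle brains. The female groups of Atp5k do not overlap, the male vehicle array lies inside the TP range, and the difference over both sexes was 0.11 (adjusted p = 0.547). The 3 genes of the proton-carrying c ring had differences near 0, at 0.048 for Atp5g1, -0.0012 for Atp5g2 and 0.025 for Atp5g3 (adjusted p = 0.821, 0.997 and 0.914).

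**Figure D2:**
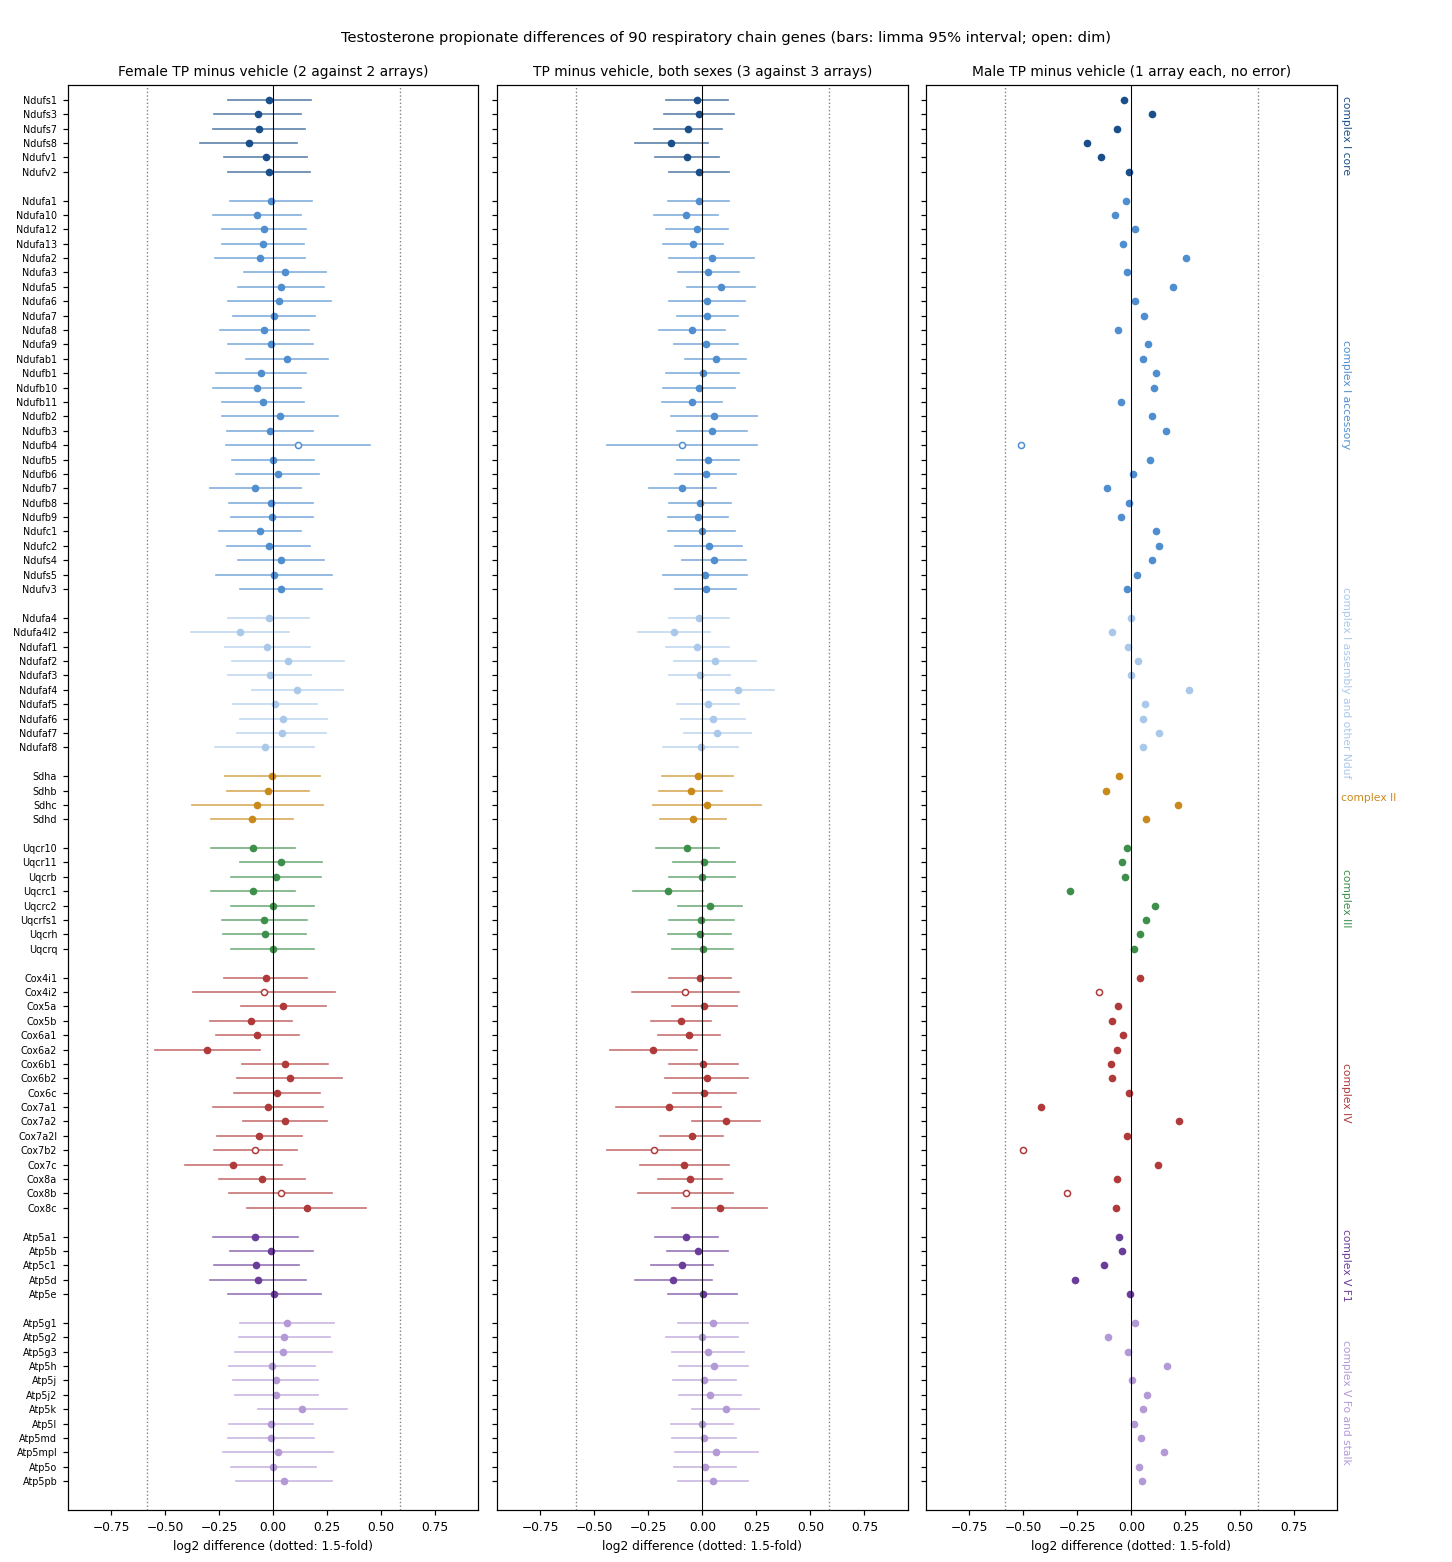
TP minus vehicle differences (log2 units) of the 90 genes by complex, in females (2 against 2 arrays), over both sexes (3 against 3) and in the male pair (1 array each, no error). Bars are limma 95% intervals, open points are dim probe sets and dotted lines mark 1.5-fold; every interval of the 90 genes lies inside 1.5-fold.

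Between the male TP and male vehicle arrays, with no replicate, 0 members differed by 1.5-fold in either direction, where 0.77% of all probe sets were higher and 0.284% lower by that much. The median member difference was -0.0072 (all probe sets -0.018). Among genes that were not dim, Ndufaf4 was highest at 0.27, followed in other classes by Ndufa2, an accessory subunit of complex I, at 0.25, Cox7a2 at 0.22, Sdhc at 0.22 and Atp5h, the stalk subunit d, at 0.17. The lowest was Cox7a1 at -0.42, and Uqcrc1 at -0.29, Atp5d at -0.26 and Ndufs8 at -0.21 were lowest in their classes. This pair rests on the array that held Xist RNA.

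The TP effect in males minus that in females was tested in a model of 4 groups. Again 0 members passed (smallest adjusted p = 0.99978), where 7 probe sets passed (0.0155%), and at an unadjusted p under 0.05 there were 0 higher and 5 lower members, beside 2.45% and 2.48% of all probe sets. The median was 0.014. The intervals were wider here, and 79 of 90 genes had a 95% interval within 1.5-fold, against 75.5% of all genes. The intervals of the other 11 genes reached 1.5-fold or beyond. By class the highest values were 0.31 for Ndufa2, 0.30 for Cox7c, a small subunit of complex IV, and 0.29 for Sdhc, and the lowest among genes that were not dim was -0.40 for Cox7a1. The dim Ndufb4 and Cox7b2 lay lower, at -0.62 and -0.42. By gene, these 2 were the only ones at an unadjusted p under 0.05 in limma.

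Male minus female was fitted over all 6 arrays with treatment in the model. The members' median was -0.050, against -0.0063 for all probe sets and -0.046 for bright ones, so the members lay lower in males by about as much as other bright probe sets. In limma 0 members passed (smallest adjusted p = 0.319), where 10 probe sets passed (0.0222%). At an unadjusted p under 0.05 there were 5 higher and 12 lower members, 2.79% and 6.70%, beside 6.36% and 5.72% of all and 0.825% and 6.32% of bright probe sets. Of the 90 genes, 70 were below 0 (77.8%), against 58.5% of all genes and 73.0% of bright ones. Both male arrays lay below all 4 female arrays in 34 genes (37.8%), against 15.1% of all genes and 23.1% of bright ones, and above them in 1 gene, Cox8c. The share of 37.8%, counted by gene, is above that of bright genes. By probe set, both male arrays lay below all 4 female arrays in 46 members (25.7%), against 11.2% of all and 21.4% of bright ones. The excess over bright probe sets was smaller by this count, and neither excess was tested. Without the male TP array 68 of 90 genes were below 0 (75.6%), against 56.7% of all and 68.9% of bright genes, and the male vehicle array lay below all 4 female arrays in 50 genes (55.6%), against 26.2% of all and 38.9% of bright genes.

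By class, the male minus female median ran between -0.020 in complex IV and -0.11 in complex II, where all 4 genes were lower. The Fo genes had a median of -0.098, with 10 of 12 lower and 7 of 12 not overlapping. Without the male TP array the class medians ran between -0.015 in F1 and -0.13 in complex II, with -0.083 in Fo. Cox8a, the common form of subunit VIII, read 11.83 with TP and 11.89 with vehicle in males. It read 11.999 and 12.10 with TP and 12.10 and 12.11 with vehicle in females. Both male values lie below every female value, and the difference of -0.22 ± 0.07 was the lowest of the 90 genes (SE; adjusted p = 0.331). Atp5g1 (-0.18), Ndufb2 (-0.18), Ndufv1 (-0.18), Atp5e (-0.17), Ndufa4 (-0.16), Sdhc (-0.16) and Uqcrfs1, the Rieske iron-sulfur protein (-0.11), were lowest in their classes. Cox8c read 7.63 with TP and 7.71 with vehicle in males, and 7.61 and 7.36 with TP and 7.41 and 7.25 with vehicle in females. Its lowest male value exceeds the highest female value narrowly, with a difference of 0.26 (adjusted p = 0.381). Without the male TP array Cox8a differed by -0.21, Cox8c by 0.38, Sdhc by -0.30 and Ndufv1 by -0.12.

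Some signs of RNA quality moved with sex, but not all in the same direction. The 3′ minus 5′ difference of the Gapdh control probe sets was higher in males. It was -0.23 with TP and -0.22 with vehicle, against -0.34 to -0.27 in the 4 female arrays. That of beta-actin was lower in males, at 0.35 on both male arrays, against 0.40 to 0.42 in females. That of pyruvate carboxylase was also lower, at 2.61 in male TP and 2.71 in male vehicle brains, against 2.78 to 3.01 in females. That of the transferrin receptor did not follow sex and lay lower on each TP array than on any vehicle array: it was -0.53 and -0.60 in female TP and -0.79 in male TP brains, against -0.35 and -0.50 in female vehicle and -0.40 in male vehicle brains. The part of these signs in the male minus female and TP differences was not tested. Without the male TP array the members' median was -0.065, without the male vehicle array -0.040, and after another quantile normalization -0.015.

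**Figure D3:**
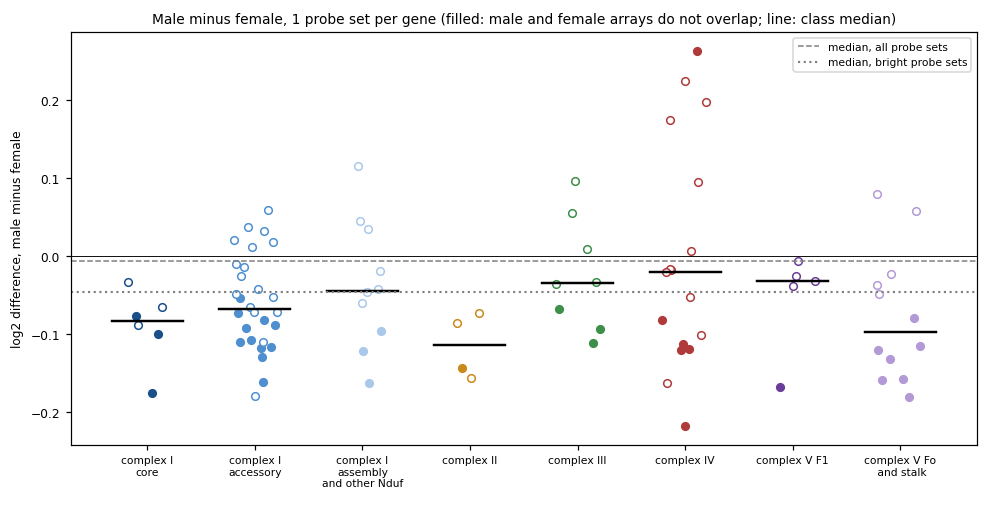
Male minus female difference (log2 units) of each gene by complex. Filled points are the 35 genes whose male and female arrays do not overlap, solid lines are class medians, and the dashed and dotted lines are the medians of all and of bright probe sets (-0.0063 and -0.046); 70 of the 90 genes lie below 0.

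Probe sets of the same gene often disagreed. Of the 51 genes with several probe sets, 26 had differences of opposite sign for TP in females, 21 over both sexes and 27 for male minus female. These counts include dim probe sets. They were made for member genes only, so they do not show whether other genes of the array disagree as often. Ndufs4, an accessory subunit of the NADH-binding arm, ranged from -0.24 to 0.25 over both sexes among 4 probe sets, while its brightest gave 0.055. The Ndufs4 probe set at -0.24 was dim, and the others gave 0.055, 0.074 and 0.25. Ndufab1 ranged from -0.17 to 0.15 and Sdha from -0.038 to 0.27, with brightest values of 0.062 and -0.021. Of their probe sets, 2 of 5 were dim for Ndufab1 and 1 of 4 for Sdha. For male minus female, Cox5b ranged from -0.17 to 0.33 among 6 probe sets, 1 of them dim, while its brightest gave -0.018. In females Ndufa12, an accessory subunit of complex I, ranged from -0.052 to 0.38, and the probe set at 0.38 was dim.

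A shape that recurred in several probe sets was picked out after the values were seen. Female vehicle 1 and the male vehicle array were the 2 lowest of the 6 in 27 members (15.1%), against 10.4% of all and 21.0% of bright probe sets. In 14 probe sets of 12 genes they lay at least 0.1 below the other 4 arrays, and 13 of these 14 were not the brightest probe set of their gene. This gap was counted in members only, so it cannot be called a trait of the members. Atp5o, the stalk protein that ties F1 to the membrane part, had the widest gap. Its second probe set read 11.07 and 11.07 in female TP, 10.47 and 11.08 in female vehicle, 11.11 in male TP and 10.62 in male vehicle brains. That gave 0.36 over both sexes (adjusted p = 0.389), the highest of any member, while the brightest Atp5o probe set gave 0.012. The brightest one read 12.64 and 12.64 in female TP, 12.60 and 12.68 in female vehicle, 12.50 in male TP and 12.46 in male vehicle brains. The other genes were Ndufb6, Uqcrb, Atp5k, Cox5a, Ndufaf4, Uqcrc2, Ndufs4, Ndufa5, Sdhd, Cox6c and Ndufv2. The median female difference over the 14 was 0.15, and 0.028 without female vehicle 1. These probe sets were picked because female vehicle 1 was low, so a smaller difference without that array follows from the choice. Female vehicle 2 still lay below both female TP arrays in 7 of the 14.

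**Figure D4:**
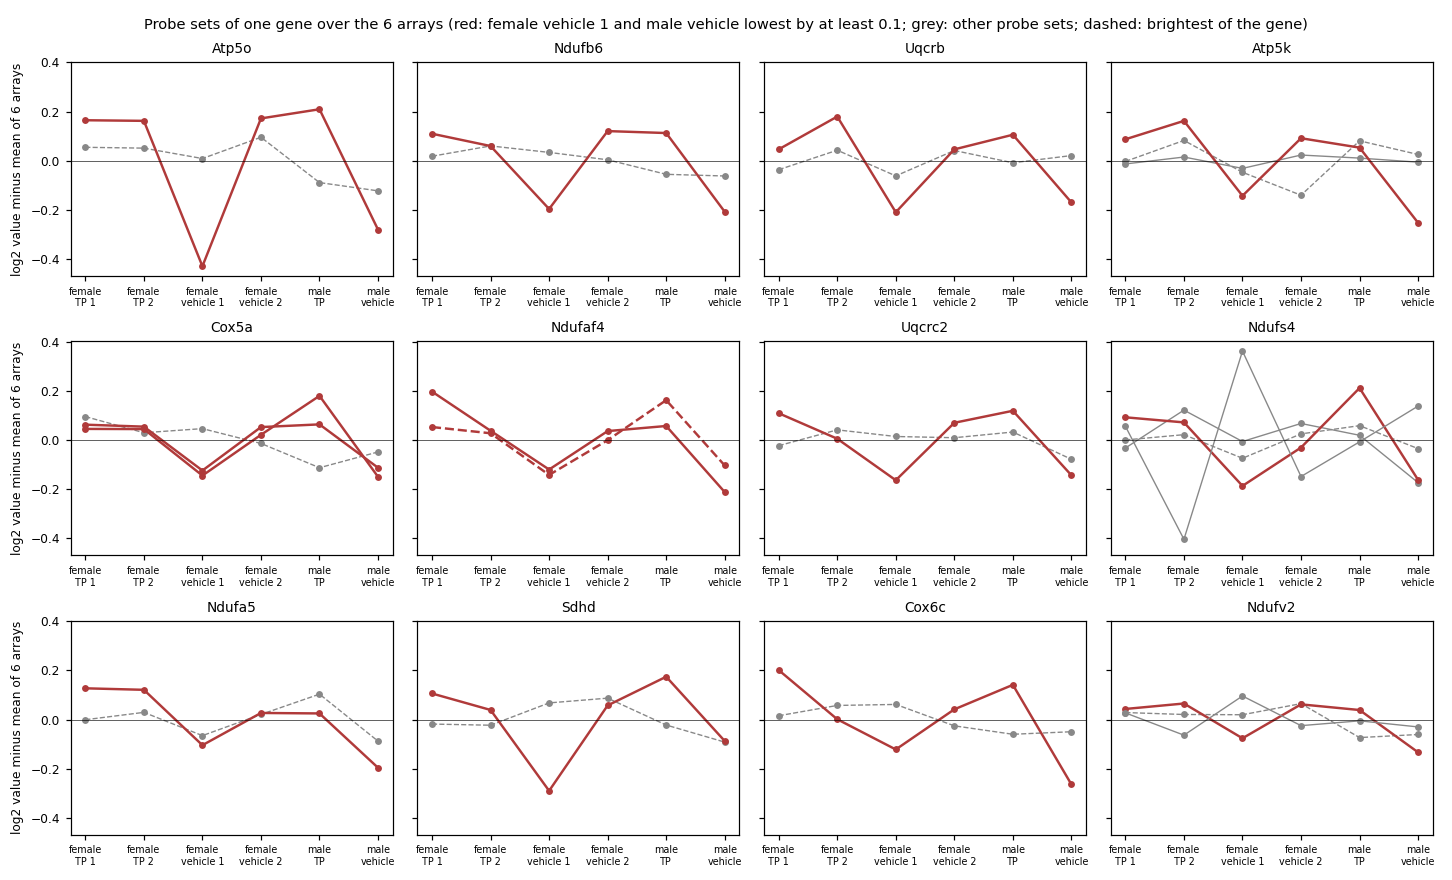
Deviation from the probe set's mean over the 6 arrays (log2 units) for all probe sets of 12 genes. Red lines are the 14 probe sets in which female vehicle 1 and male vehicle lie at least 0.1 below the other arrays, grey lines the other probe sets of the gene and dashed lines the brightest one; in Atp5o the red line reads 10.47 and 10.62 on those arrays while the brightest stays between 12.46 and 12.68.

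The rest of the mitochondrial programme was read through lists of other genes, and 0 genes of any of them passed in any tested comparison. Of 30 further respiratory chain genes (cytochrome c and its relatives, and mostly assembly factors of complexes I to V), 15 were higher and 15 lower with TP over both sexes. Cycs, cytochrome c itself, differed by 0.17 and Uqcc3, an assembly factor of complex III, by -0.16 (adjusted p = 0.402 and 0.362). In the citric acid cycle, which feeds the chain, 5 of 15 were higher and 10 lower, with Dld, a shared subunit of the oxoacid dehydrogenases, at 0.18 (adjusted p = 0.342). Mitochondrial ribosomal proteins counted 28 higher and 48 lower, led by Mrpl9 at 0.22 (adjusted p = 0.355), and import genes 9 higher and 14 lower, led by Tomm20, an outer membrane receptor, at 0.21 (adjusted p = 0.334). Regulators of mitochondrial biogenesis counted 10 higher and 7 lower. Among them Nrf1, the factor behind the NRF1 motif, differed by -0.17 (adjusted p = 0.453). Cytosolic ribosomal proteins counted 28 higher and 26 lower and glycolysis genes 6 higher and 8 lower.

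For male minus female, with both male arrays, most genes of these lists were below 0, as among the members. Lower in males were 29 of 30 further respiratory chain genes, 71 of 76 mitochondrial ribosomal proteins, 21 of 23 import genes, 14 of 17 biogenesis regulators, 12 of 15 citric acid cycle genes, 42 of 54 cytosolic ribosomal proteins and 10 of 14 glycolysis genes. The largest single differences by p were Timm50, an import gene, at -0.25 (adjusted p = 0.314) and Mrpl24 at -0.23 (adjusted p = 0.322). The background for these counts is 58.5% of all genes and 73.0% of bright genes below 0.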

How the data were processed

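RNA of whole brains was measured on 6 Affymetrix arrays. The deposited values are log2 expression values per probe set, which the authors made with RMA, per the submitters' processing notes (background correction, normalization between arrays and summary of probes); the sources used here give no version. Of 45101 probe sets, 64 array controls were left out and 45037 were tested.

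Genes were named through the platform annotation, in which 34945 probe sets carry 1 gene symbol, 932 several and 9160 none; 0 symbols needed updating through RefSeq (GRCm38.p6). The members, their classes and all gene lists were chosen with earlier results of these data known. Where 1 value per gene was needed, the brightest probe set (highest mean of the 6 arrays) stood for the gene. The NRF1 words were shortened to an 8-letter core after the values of a first search with a longer form had been seen; the longer form matched fewer genes among members and on the array, and both are given.

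Differences were fitted over all probe sets in R 4.3.3 by lmFit and eBayes of limma 3.58.1 (two-sided, no trend). P-values were adjusted by Benjamini-Hochberg, and a call needed an adjusted p below 0.05. These fits gave every adjusted p and 95% interval. They were tried on simulated data with differences larger than those of the members, and the coverage of the intervals was not checked. Models were treatment in the 4 female arrays, treatment plus sex in all 6, and 4 groups for the TP effect in males minus that in females; the lone male arrays were then assumed to vary like the female ones. The male pair, with 1 array each, got no test. Bright probe sets, a background chosen after seeing the data, are the 9942 with a mean of at least 8.15, the members' lower quartile. Named were, per comparison and class, the highest and lowest gene that was not dim, all Sdh genes, the Cox, Atp5g and Ndufa4 isoform families, up to 4 genes with probe sets of opposite sign, and up to 3 genes of each other list by p. Other genes named were chosen after their values were seen: those whose groups do not overlap, and the 12 genes with a shared dip in the vehicle arrays.

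Alternatives were 1 probe set or the mean per gene, no dim probe sets, quantile normalization again, median centring, an intensity trend, a replicate block, 4 groups, each array left out, other call rules and subunits only. Drawing used Python 3.11.15, pandas 2.3.3 and matplotlib 3.10.9. The values hold no counts, and precision is limited by the number of arrays.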

Additional observations from a re-analysis of the deposited data

How the results depend on the processing

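Under 53 alternatives of the counts by adjusted p, 0 members passed in every one (smallest adjusted p = 0.114); by unadjusted p the counts were 5 for female TP minus vehicle, 13 for TP minus vehicle over both sexes, 17 for male minus female and 5 for the TP effect in males minus that in females. A rule of groups that do not overlap and 1.5-fold gave 0. Of 28 alternatives of the median member difference that keep all arrays, 25 moved it by less than the SD between replicate arrays (0.017), and quantile normalization again moved it to -0.023 over both sexes, -0.015 for male minus female and -0.031 for the male pair; the cause was not tested. Leaving out each array in turn gave medians of -0.028 to 0.0033 in females, -0.013 to 0.0049 over both sexes and -0.065 to -0.040 for male minus female, and counts of 0 to 0. Leaving out each male array in turn was an alternative chosen after seeing the data. It gave 62 to 68 member genes below 0 for male minus female and 46 to 50 with the remaining male array below all female arrays. The 62 genes, without the male vehicle array, were 68.9%, against 57.7% of all and 70.1% of bright genes. The 46 genes, in the same setting, were 51.1%, against 33.7% of all and 43.7% of bright genes. Shares without the male TP array are given above. With a male array left out, the TP difference over both sexes equals the female one and the difference between the sexes' TP effects could not be fitted. With the original or replica number as a replicate block, a pairing the labels do not state, 0 members passed in each comparison and the male minus female median was -0.033. Of 1847 alternative values of named genes, 1711 stayed within the spread between replicate arrays, 136 moved beyond it and 0 crossed the threshold. Dim probe sets, 20 of the 179 members, limit what can be read for Ndufb4, Cox4i2, Cox7b2 and Cox8b.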
